A study of Mus musculus with 8 samples.

Results

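Amino acid transporters are membrane proteins that carry amino acids, and in some subfamilies related small molecules, across the plasma membrane or the membranes of lysosomes and vesicles. Messenger RNA of 7 solute carrier families was examined in a mouse epicardial cell line: Slc1, Slc3, Slc6, Slc7, Slc36, Slc38 and Slc43. Members were the protein-coding genes of the deposited count table whose symbol is a family name followed by a number. The rule took 59 of 22026 protein-coding genes and of 35275 genes in all. Slc6a16 has such a name but is listed as a lincRNA and was left out, and the symbols Slc6a20a and Slc6a20b end in a letter and fall outside the rule. The rule used names only and no measured value, but the members were chosen with earlier results of these data known. The Slc6 family also holds carriers of creatine, taurine, GABA and monoamines, so not every member carries an amino acid used in proteins.

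The 8 libraries came from mouse epicardial cells grown in high-glucose medium with serum. In 4 libraries the cells had received an empty lentiviral vector (EV), and in 4 they were labelled as a CRISPR/Cas9 knockout of Hdac3 (KO), the catalytic histone deacetylase of the NCoR corepressor. The characteristics of KO replicates 2 to 4 name a lentivirus with an Hdac3 guide RNA. For KO replicate 1 they name the empty vector, against the title, and libraries were grouped by title. The labels do not say whether the replicates were separate cultures or whether the KO cells were 1 clone, so p-values measure the spread between these libraries, which may be technical. Library totals ranged from 18063745 to 24564892 counts, and 3 counts corresponded to 0.125 to 0.164 CPM. CPM are counts scaled to a common library size after a correction for library composition (TMM), and FPKM are the deposited values per kilobase of gene length, which alone were used to compare levels between genes. Where values are given for each library, they stand in the order of the replicate numbers 1 to 4. Of 12 epicardial and mesothelial marker genes, 11 passed the filter on low counts, Upk3b, Msln, Upk1b and Krt18 among them at EV means of 1858, 683, 583 and 449 CPM, and Aldh1a2 did not (0.407 CPM in EV). Of the 11, 4 rose and 3 fell (63.6%, beside 26.0% of all tested genes), and their median log2 fold change was 0.028. Those that fell were Wt1 (log2 fold change −0.37), Tcf21 (−0.73) and Upk3b (−0.34), while the 4 others that passed rose. The 12 markers summed to 4648, 4401, 4656 and 4574 CPM in the EV libraries. In the KO libraries they summed to 4493, 4464, 4590 and 4491 CPM, with overlapping groups. Summed levels of 20 liver genes ranged from 12.7 to 15.4 CPM in EV and stood at 21.4, 35.0, 34.8 and 16.9 CPM in the KO libraries, so the numbers of all members higher and lower were also taken without KO replicates 2 and 3. Of the tested markers of other cell types, 5 of 9 liver genes rose and 1 fell, and 1 of 4 cardiomyocyte genes fell. Among endothelial genes 1 of 3 rose and 2 fell, and among macrophage genes 1 of 3 rose and 1 fell. For neurons and glia 1 of 2 genes rose. Over all tested genes, 12.6% rose and 13.4% fell. Hdac3 itself was at 60.3, 61.4, 64.0 and 61.7 CPM in the EV libraries and 63.2, 56.9, 63.9 and 62.6 CPM in the KO libraries (log2 fold change −0.0050, SE 0.0528, edgeR adjusted p = 0.956). Its transcript level did not set the groups apart, and whether an edit changed its sequence or its protein was not analysed here.

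The families divide the work of amino acid supply. Slc3 proteins are heavy chains that bring Slc7 light chains to the cell surface, where the pair exchanges one amino acid for another. Slc1 proteins use ion gradients to concentrate glutamate, aspartate and small neutral amino acids, and Slc38 and Slc6 carriers couple uptake to sodium. Some Slc36 carriers, Slc36a1 among them, use protons. Several members, Slc36a1, Slc38a7 and Slc38a9 among them, act at lysosomes. There amino acids freed from degraded protein leave for the cytosol, and mTORC1 reads their supply. In the heart and other tissues with high energy use, taurine and creatine are taken up by Slc6a6 and Slc6a8.

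The comparison of KO with EV asks which transcripts differ with the Hdac3 knockout. Among the transporters, the taurine carrier Slc6a6 and the glutamate carriers Slc1a2 and Slc1a3 fell, as did Slc43a1, Slc6a17 and Slc7a4. The creatine carrier Slc6a8, the lysosomal carriers Slc38a7 and Slc36a1, the heavy chain Slc3a2, and Slc43a2 and Slc7a2 rose. Of the 59 members, 31 passed the filter on low counts and were tested, and 12 of these (38.7%) had an adjusted p under 0.05 in edgeR's quasi-likelihood test, beside 26.0% of the 12801 genes tested. The 6 that rose made up 19.4% of the tested members and the 6 that fell another 19.4%, beside 12.6% and 13.4% of all tested genes. The shares were not tested against each other. Of the 12 members, 4 had an adjusted p of 0.02 or more in edgeR. In DESeq2, 5 members were higher and 4 lower, and 3220 genes passed in all. Counts for single families given below rest on few genes and are to be read beside the same shares of all tested genes. Most differences were small: 11 of the 12 were under 1.5-fold, and Slc1a2 alone differed by at least 2-fold. The median log2 fold change of the 31 was 0.026, beside 0.0050 over all tested genes, and the median size without sign was 0.22 beside 0.14. In 10 of the 31 (32.3%) the CPM of the groups did not overlap, beside 26.5% of all tested genes. The balance of directions depended on scaling: with library totals alone 4 members were higher and 9 lower, and with limma on log2(FPKM + 1), 3 were higher and 6 lower. Over all genes the split of 1613 higher and 1711 lower became 1039 and 2414 with library totals alone, where the median log2 fold change was −0.046. Without KO replicates 2 and 3, 4 were higher and 5 lower, and without KO replicate 1, 3 were higher and 5 lower. Because these are bulk RNA libraries, fewer cells that express a gene and less RNA per cell cannot be told apart.

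**Figure D1:**
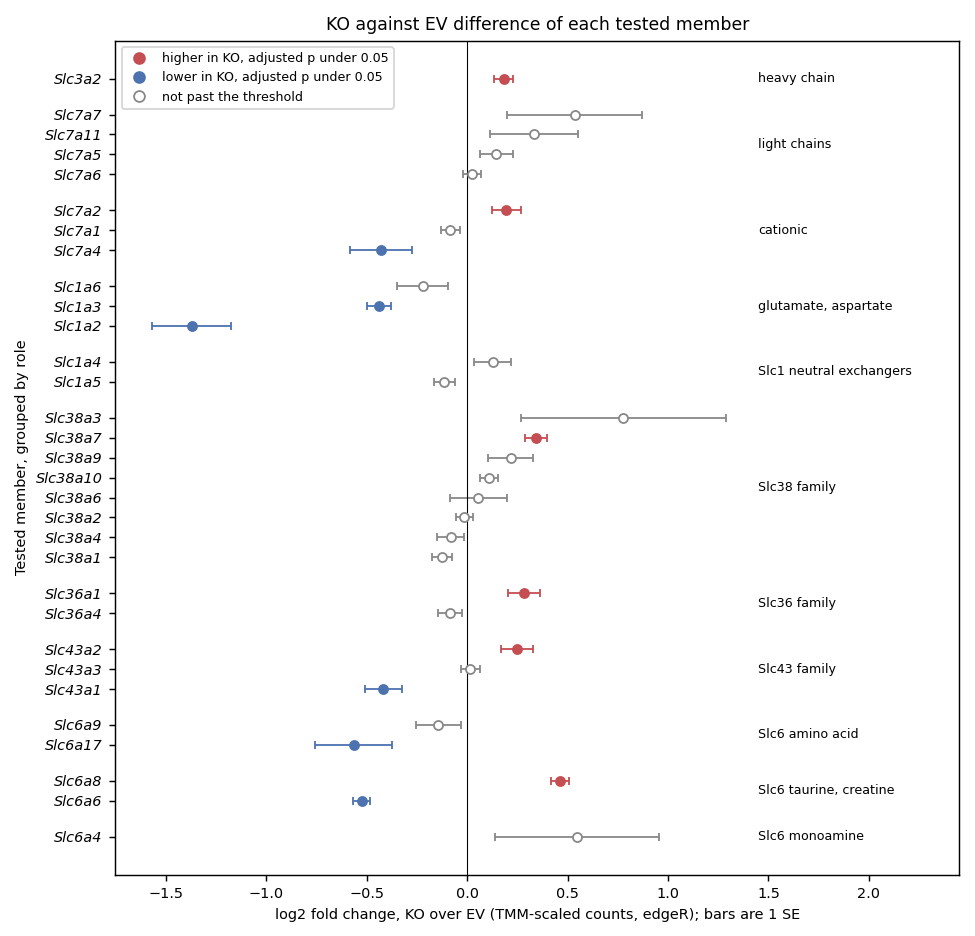
log2 fold change of KO over EV (x axis, edgeR on TMM-scaled counts, bars are 1 SE) for the 31 tested members, grouped by role on the y axis. Filled red points rose and filled blue points fell at an adjusted p under 0.05 (6 each), open grey points did not pass, and Slc1a2 at −1.37 lies farthest from 0.

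Transcript levels per length ranged from a mean of 0.138 FPKM for Slc38a3 to 115 FPKM for Slc38a2 among the tested members. Of the 59 members, 12 had a mean of at least 10 FPKM over the 8 libraries and 24 a mean of at least 1 FPKM. The sodium-coupled neutral carrier Slc38a2 led with a mean of 115 FPKM, followed by Slc6a6 (89.2 FPKM), Slc3a2 (58.3 FPKM), Slc38a10 (51.5 FPKM), Slc43a3 (42.0 FPKM) and Slc6a8 (37.8 FPKM). The order at the top differed between groups. In EV, Slc38a2 and Slc6a6 were close, at 118 ± 3.61 and 107 ± 1.41 FPKM (SD, n = 4 each). In KO they stood at 112 ± 0.888 and 71.7 ± 2.94 FPKM. Slc6a8 lay below Slc43a3 in EV (32.5 ± 1.63 and 42.5 ± 2.01 FPKM), and had the higher mean of the pair in KO (43.2 ± 0.558 and 41.5 ± 1.25 FPKM). The FPKM of all 59 members summed to 591 ± 3.08 in EV and 559.8 ± 4.98 in KO (SD, n = 4 each), and without Slc6a6 to 484 ± 3.35 in EV and 488 ± 3.87 in KO (SD, n = 4 each). The deposited FPKM carry no correction for library composition.

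**Figure D2:**
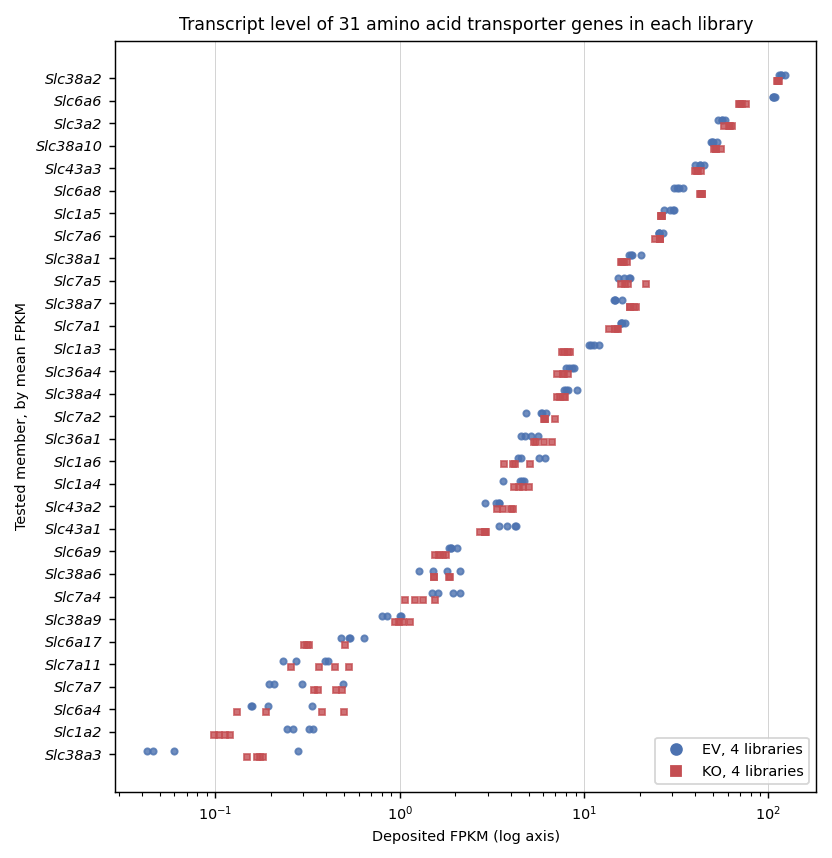
Deposited FPKM on a log axis (x) of the 31 tested members, ordered by mean level (y), with 1 point per library (blue circles EV, red squares KO, 4 each). Slc38a2 is at the top with a mean of 115 FPKM, and the groups stand apart for Slc6a6 and Slc6a8 and overlap for Slc43a3.

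The taurine and creatine carriers moved in opposite directions. Slc6a6 (ENSMUSG00000030096, mm10 chromosome 6, 91684067 to 91759063), the plasma membrane carrier of taurine, stood at 648, 633, 662 and 647 CPM in the EV libraries and 449, 475, 442 and 437 CPM in the KO libraries. Every KO library lay below every EV library. The means were 648 ± 12.2 in EV and 450.5 ± 16.9 CPM in KO (SD, n = 4 each). This was a log2 fold change of −0.52 at an SE of 0.0429 (adjusted p = 2.81e-08 in edgeR), and Slc6a6 was 1.44-fold lower in KO. Slc6a8 (ENSMUSG00000019558, mm10 chromosome X, 73673150 to 73682502), an X-linked gene for the creatine carrier, stood at 120.5, 134, 125 and 127 CPM in the EV libraries and 174, 176, 176 and 172 CPM in the KO libraries. Here all KO libraries lay above all EV libraries, and the 4 KO values were closer together than the EV values. Its means were 126 ± 5.41 in EV and 174 ± 1.93 CPM in KO (SD, n = 4 each). The log2 fold change of 0.46 at an SE of 0.0440 (adjusted p = 1.85e-07 in edgeR) corresponds to a level 1.38-fold higher in KO. Both calls held under each of the 20 alternatives run, with log2 fold changes from −0.57 to −0.51 for Slc6a6 and from 0.40 to 0.49 for Slc6a8. The ratio of Slc6a6 to Slc6a8 by FPKM, which does not depend on library scaling, was 3.45, 3.04, 3.40 and 3.28 in the EV libraries and 1.66, 1.73, 1.61 and 1.63 in the KO libraries. It averaged 3.30 ± 0.183 in EV and 1.66 ± 0.0532 in KO (SD, n = 4 each), and the ratio was chosen after both values were seen.

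The other Slc6 carriers were low. Slc6a17 (ENSMUSG00000027894, mm10 chromosome 3, 107467543 to 107518018), a carrier of neutral amino acids in synaptic vesicles, stood at 3.01, 3.28, 4.03 and 3.32 CPM in the EV libraries and 2.02, 3.23, 2.07 and 1.95 CPM in the KO libraries. KO replicate 2 reached into the EV range and the other KO libraries lay below it. It fell with a log2 fold change of −0.56 at an SE of 0.192 (adjusted p = 0.0366 in edgeR), and the call was lost when EV replicate 2 or 3, or KO replicate 1, 3 or 4, was left out (adjusted p from 0.0597 to 0.120), in DESeq2 (adjusted p = 0.0533) and in the 3 fits on FPKM (adjusted p from 0.0696 to 0.123). The glycine carrier Slc6a9 was at 6.57 ± 0.266 in EV and 5.94 ± 0.383 CPM in KO (SD, n = 4 each), with a log2 fold change of −0.14 at an SE of 0.113 (adjusted p = 0.387 in edgeR). It overlaps B4galt2 on the opposite strand, whose counts rose (log2 fold change 0.36, edgeR adjusted p = 0.00179), and the sources used here do not say whether the counting used strand. The serotonin carrier Slc6a4 had 8, 12, 20 and 9 counts in the EV libraries and 7, 29, 25 and 13 in the KO libraries. The highest of these were KO replicates 2 and 3, and the difference did not pass (adjusted p = 0.352). In the Slc6 family, 12 members were not tested, 8 of them with no count in any library, the dopamine carrier Slc6a3, the glycine carrier Slc6a5, Slc6a14, Slc6a15, Slc6a18 and Slc6a19 among them.

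Of the 5 carriers of glutamate and aspartate, 3 were tested. Of these, 2 fell and 0 rose, beside 13.4% and 12.6% of all tested genes. Slc1a3 (ENSMUSG00000005360, mm10 chromosome 15, 8634124 to 8710764), known as the glial carrier GLAST, stood at 49.9, 46.2, 47.6 and 52.2 CPM in the EV libraries and 35.2, 34.3, 37.1 and 38.0 CPM in the KO libraries. The groups did not overlap, and Slc1a3 fell with a log2 fold change of −0.44 at an SE of 0.0598 (adjusted p = 2.00e-05 in edgeR). Slc1a2 (ENSMUSG00000005089, mm10 chromosome 2, 102658659 to 102790784), the main glutamate carrier of astrocytes, had 55, 63, 80 and 81 counts in the EV libraries and 25, 29, 27 and 30 in the KO libraries. Each KO library lay well below each EV library, at a low level: 3.33 ± 0.528 in EV and 1.29 ± 0.110 CPM in KO (SD, n = 4 each). Its log2 fold change of −1.37 at an SE of 0.197 (adjusted p = 3.35e-05 in edgeR) corresponds to a 2.58-fold lower level, and the call held under all 18 alternatives in which it was tested. Its FPKM was under the filter's minimum of 0.5 in all 8 libraries, so both filtered FPKM fits left it out, and on the log2(FPKM + 1) scale without a filter the difference was −0.22. The remaining tested carrier, Slc1a6, was at 10.7 ± 1.78 in EV and 9.14 ± 1.25 CPM in KO (SD, n = 4 each) with overlapping groups (log2 fold change −0.22, SE 0.126, edgeR adjusted p = 0.216). Summed FPKM of the 5 genes averaged 16.8 ± 0.904 in EV and 12.4 ± 0.875 in KO (SD, n = 4 each), most of it from Slc1a3. The summed level of 8 markers of neurons and glia, given beside these results, was 3.56 to 5.14 CPM in EV and 5.52 to 7.40 CPM in KO. Every KO library thus lay above every EV library in this sum. Of the 8 markers, 2 were tested and 1 of these rose. Snap25 and Gad1 were at 0, and the astrocyte marker Gfap was at means of 0.0231 and 0.0567 CPM.

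The Slc1 exchangers of neutral amino acids did not pass. Slc1a5, a main entry route of glutamine, stood at 84.8, 84.2, 81.2 and 75.1 CPM in the EV libraries and 75.6, 74.2, 76.2 and 74.9 CPM in the KO libraries. EV replicate 4 lay within the KO range and the other EV libraries above it, and the test gave a log2 fold change of −0.11 at an SE of 0.0504 (adjusted p = 0.111 in edgeR). It passed with library totals alone (log2 fold change −0.16, adjusted p = 0.0213), in the 3 fits on FPKM (adjusted p from 0.0248 to 0.0328) and without EV replicate 4 (log2 fold change −0.15, adjusted p = 0.0212). Slc1a4, which carries alanine, serine and cysteine, was at 16.8 ± 1.97 in EV and 18.4 ± 1.43 CPM in KO (SD, n = 4 each) with a log2 fold change of 0.13 at an SE of 0.0923 (adjusted p = 0.340 in edgeR).

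**Figure D3:**
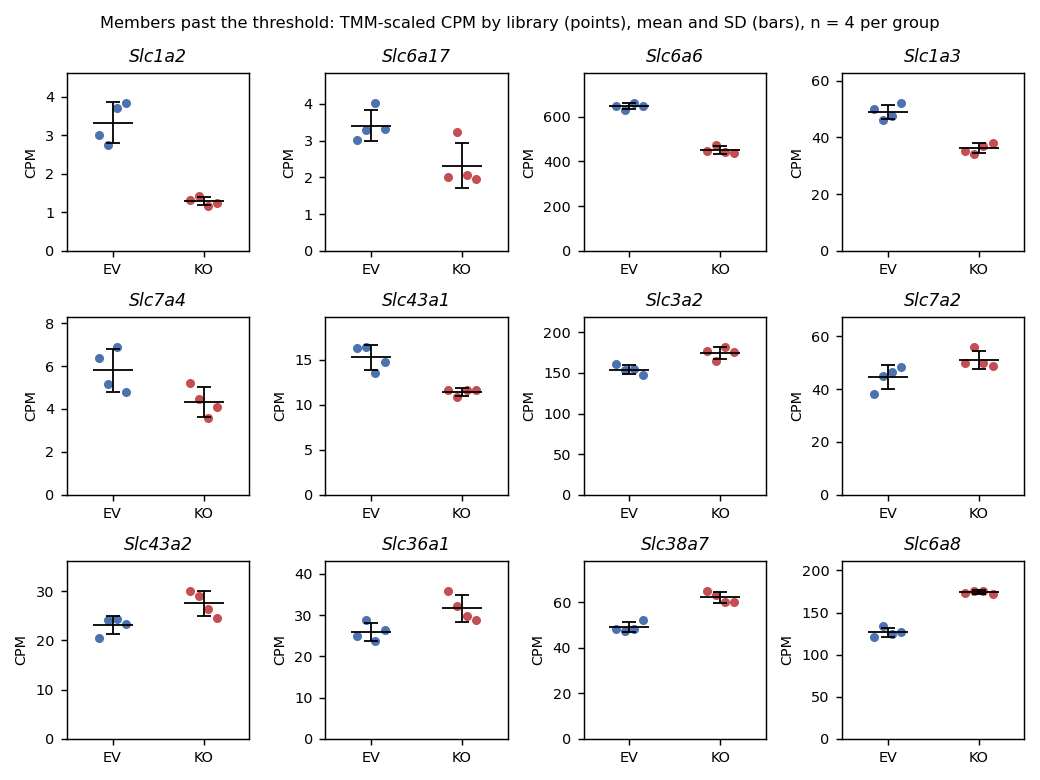
TMM-scaled CPM (y axes, from 0) of the 12 members that passed, 1 panel each, ordered from the largest fall to the largest rise. Points are the 4 EV (blue) and 4 KO (red) libraries, bars the mean and SD. In Slc6a17 and Slc7a4 the groups overlap, and in the other 10 panels they do not.

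The heavy chain of the heteromeric transporters passed and its tested light chains did not. The median log2 fold change of the 4 tested light chains was 0.24, beside 0.18 for the heavy chain. Heavy and light chains were not tested against each other. Slc3a2 (ENSMUSG00000010095, mm10 chromosome 19, 8706882 to 8723369), also known as 4F2hc or CD98, stood at 161, 153, 155 and 147 CPM in the EV libraries and 176, 165, 182 and 175 CPM in the KO libraries. All KO libraries lay above all EV libraries, by a small margin. Slc3a2 rose with a log2 fold change of 0.18 at an SE of 0.0460 (adjusted p = 0.00630 in edgeR), and the call was lost in 1 of 20 alternatives, FPKM without a filter (adjusted p = 0.0543). Slc3a1, the heavy chain of kidney and gut, had 11 counts in all libraries together and was not tested. Of 10 light chains, 4 were tested and 0 rose or fell. Slc7a6, which exchanges cationic for neutral amino acids, stood at 94.0, 97.4, 93.8 and 93.7 CPM in the EV libraries and 92.3, 97.1, 98.2 and 98.1 CPM in the KO libraries. The groups overlapped, with a log2 fold change of 0.026 at an SE of 0.0452 (adjusted p = 0.714 in edgeR). Slc7a5, the carrier of leucine and other large neutral amino acids, stood at 61.9, 56.7, 60.7 and 52.4 CPM in the EV libraries and 59.3, 61.9, 57.1 and 77.8 CPM in the KO libraries. KO replicate 4 was the highest of all and the other 3 KO libraries lay within the EV range, with a log2 fold change of 0.15 at an SE of 0.0812 (adjusted p = 0.204 in edgeR). Slc7a11, the cystine-glutamate exchanger, had 66, 84, 46 and 52 counts in the EV libraries and 79, 102, 56 and 83 in the KO libraries. Replicate 3 was lowest in each group and the groups overlapped, with a log2 fold change of 0.33 at an SE of 0.221 (adjusted p = 0.292 in edgeR). Slc7a7, which overlaps Oxa1l on the opposite strand, was at 0.628 ± 0.290 in EV and 0.896 ± 0.154 CPM in KO (SD, n = 4 each), with a log2 fold change of 0.54 at an SE of 0.337 (adjusted p = 0.263 in edgeR).

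Levels of the heavy and light chains can be compared per length. In FPKM, Slc3a2 stood at 57.8, 55.9, 55.7 and 53.3 in the EV libraries and 61.6, 57.7, 63.4 and 61.0 in the KO libraries, and the 10 light chains together at 44.2, 44.0, 43.4 and 41.5 in the EV libraries and 41.9, 44.0, 42.4 and 48.2 in the KO libraries. The ratio of light chains to Slc3a2 averaged 0.777 ± 0.00956 in EV and 0.725 ± 0.0598 in KO (SD, n = 4 each), and KO replicates 2 and 4 (0.762 and 0.789) lay near the EV values while KO replicates 1 and 3 (0.679 and 0.669) lay below all of them. Slc7a6 made up 59.7 ± 1.98% of the light chain FPKM in EV and 57.7 ± 3.07% in KO (SD, n = 4 each). Slc7a5 made up 38.7 ± 1.81% and 40.4 ± 3.22%, and Slc7a11 between 0.537 and 1.21% in every library. The light chains of kidney and gut, Slc7a9, and of cells of the nervous system, Slc7a10, had 1 and 0 counts in all. Slc7a8, a light chain for neutral amino acids, had 5, 4, 3 and 4 counts in the EV libraries and 1, 2, 1 and 2 in the KO libraries, and was not tested.

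**Figure D4:**
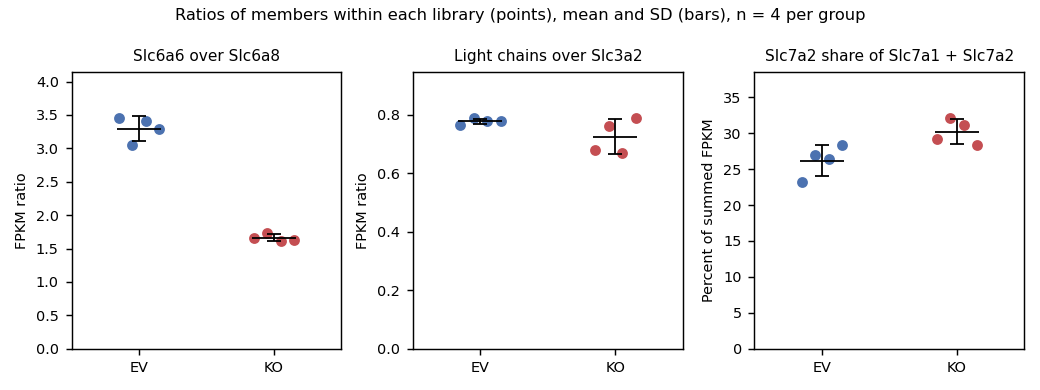
Ratios of deposited FPKM within each library (y axes, from 0) for Slc6a6 over Slc6a8, the 10 light chains over Slc3a2, and Slc7a2 as a percent of Slc7a1 plus Slc7a2. Points are libraries (blue EV, red KO), bars the mean and SD of 4. The first ratio goes from 3.04 to 3.45 in EV to 1.61 to 1.73 in KO, while the second overlaps between groups.

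Of the cationic family, whose carriers take up arginine and lysine, 3 of 5 members were tested, and 1 rose and 1 fell. Slc7a1, the widely expressed arginine carrier, stood at 115, 110.3, 118 and 112 CPM in the EV libraries and 109.6, 108, 99.7 and 112 CPM in the KO libraries. The groups overlapped, with a log2 fold change of −0.084 at an SE of 0.0481 (adjusted p = 0.219 in edgeR), and it passed with library totals alone (log2 fold change −0.13, adjusted p = 0.0437). Slc7a2 (ENSMUSG00000031596, mm10 chromosome 8, 40862396 to 40922308), a second arginine carrier, stood at 38.1, 44.8, 46.5 and 48.5 CPM in the EV libraries and 49.7, 56.0, 49.7 and 48.8 CPM in the KO libraries. The lowest KO library lay just above the highest EV library, KO replicate 2 was the highest and EV replicate 1 the lowest. Slc7a2 rose with a log2 fold change of 0.20 at an SE of 0.0702 (adjusted p = 0.0465 in edgeR), and the call was lost without any 1 of EV replicates 1, 2 and 3 or any of the KO replicates (adjusted p from 0.0547 to 0.157), with library totals alone (adjusted p = 0.147), without KO replicates 2 and 3 (adjusted p = 0.288), in the 3 fits on FPKM (adjusted p from 0.222 to 0.342) and in DESeq2 (adjusted p = 0.0566). The log2 fold change of Slc7a2 was 0.13 without EV replicate 1 and 0.15 without KO replicate 2. As liver expresses Slc7a2, the summed levels of liver genes in the KO libraries are given beside it: 21.4, 35.0, 34.8 and 16.9 CPM. Slc7a2 stood at 49.7, 56.0, 49.7 and 48.8 CPM in the same libraries. The part of the liver genes' levels in the result was not tested. Slc7a2 made up 26.2 ± 2.16% of the FPKM of Slc7a1 and Slc7a2 together in EV and 30.2 ± 1.75% in KO (SD, n = 4 each).

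Slc7a4 (ENSMUSG00000022756, mm10 chromosome 16, 17572018 to 17576998) stood at 6.36, 5.16, 6.90 and 4.79 CPM in the EV libraries and 5.20, 4.46, 3.58 and 4.07 CPM in the KO libraries. KO replicate 1 lay within the EV range. It fell with a log2 fold change of −0.43 at an SE of 0.153 (adjusted p = 0.0462 in edgeR), a call lost when EV replicate 1 or 3, or KO replicate 2, 3 or 4, was left out (adjusted p from 0.0695 to 0.164), in DESeq2 (adjusted p = 0.0660), in limma-voom (adjusted p = 0.0521), on log2(FPKM + 0.1) and on unfiltered log2(FPKM + 1) (adjusted p from 0.0524 to 0.104) and without KO replicates 2 and 3 (adjusted p = 0.277). Slc7a4 overlaps P2rx6, the gene of an ATP-gated channel, on the opposite strand. P2rx6 fell by 0.97 on the log2 scale (edgeR adjusted p = 2.75e-05), and its part in the Slc7a4 counts was not tested. Slc7a3 and Slc7a14 had 14 and 1 counts in all and were not tested.

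In the Slc38 family, 8 of 11 members were tested, 1 rose and 0 fell, and the family held the most abundant of the 59 members. Slc38a2, which many cell types induce when amino acids are short, stood at 520.1, 529, 535 and 554 CPM in the EV libraries and 535, 526, 526 and 531 CPM in the KO libraries. The groups overlapped, and the difference was smaller than its standard error (log2 fold change −0.014, SE 0.0408, edgeR adjusted p = 0.842). Slc38a2 made up 52.3 to 55.9% of the summed FPKM of the family in every library. Slc38a1, a glutamine carrier, stood at 134, 137, 139 and 154 CPM in the EV libraries and 125, 134, 131 and 127 CPM in the KO libraries. EV replicate 4 was the highest and the groups overlapped, with a log2 fold change of −0.13 at an SE of 0.0501 (adjusted p = 0.0739 in edgeR). It passed without EV replicate 1 (log2 fold change −0.15, adjusted p = 0.0340), in both filtered fits on FPKM (adjusted p from 0.0402 to 0.0404) and with library totals alone (log2 fold change −0.18, adjusted p = 0.0149). Slc38a4, an imprinted gene for a carrier abundant in liver and placenta, was at 32.0 ± 2.47 in EV and 30.2 ± 1.37 CPM in KO (SD, n = 4 each), with a log2 fold change of −0.082 at an SE of 0.0679 (adjusted p = 0.410 in edgeR). Slc38a1, Slc38a2 and Slc38a4 lie in a row on chromosome 15, with gaps of 44480 and 295124 bases, and none of the 3 passed. Slc38a10 stood at 239.8, 221, 226 and 219.9 CPM in the EV libraries and 243, 258, 237 and 243 CPM in the KO libraries. KO replicate 3 lay below EV replicate 1, and the test gave a log2 fold change of 0.11 at an SE of 0.0448 (adjusted p = 0.0757 in edgeR). It passed without EV replicate 1 (log2 fold change 0.13, adjusted p = 0.0371). Slc38a6 was at 6.48 ± 1.35 in EV and 6.79 ± 0.728 CPM in KO (SD, n = 4 each), with a log2 fold change of 0.057 at an SE of 0.143 (adjusted p = 0.810 in edgeR).

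Slc38a3, a glutamine carrier of liver, kidney and brain, had 16, 3, 4 and 3 counts in the EV libraries and 9, 11, 13 and 14 in the KO libraries. EV replicate 1 was the highest of all 8 libraries and the other 3 EV libraries the lowest. With it, the test gave a log2 fold change of 0.78 at an SE of 0.511 (adjusted p = 0.287 in edgeR), and without it one of 1.79 (adjusted p = 0.0109), so this library decides the call. Its levels were 0.478, 0.539, 0.560 and 0.582 CPM in the KO libraries. Liver expresses Slc38a3, and the part of the liver genes' levels in this result was not tested.

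Carriers of the lysosomal membrane included 2 that rose. Slc38a7 (ENSMUSG00000036534, mm10 chromosome 8, 95835920 to 95853539), which moves glutamine and asparagine out of lysosomes, stood at 48.4, 47.3, 48.5 and 52.2 CPM in the EV libraries and 65.1, 63.4, 60.4 and 60.3 CPM in the KO libraries. All KO libraries lay above all EV libraries. Slc38a7 rose with a log2 fold change of 0.34 at an SE of 0.0537 (adjusted p = 8.76e-05 in edgeR) and passed under each of 20 alternatives, with log2 fold changes from 0.28 to 0.37. Slc36a1 (ENSMUSG00000020261, mm10 chromosome 11, 55204350 to 55236330), a proton-coupled carrier of small neutral amino acids, stood at 24.8, 28.7, 23.7 and 26.4 CPM in the EV libraries and 35.9, 32.2, 29.7 and 28.7 CPM in the KO libraries. KO replicate 1 was the highest, and KO replicate 4 lay above EV replicate 2 by less than the rounding of these values. Slc36a1 rose with a log2 fold change of 0.28 at an SE of 0.0796 (adjusted p = 0.0129 in edgeR), and the call was lost without EV replicate 3 (adjusted p = 0.0534) or KO replicate 1 (adjusted p = 0.0630) and in all 3 fits on FPKM (adjusted p from 0.0827 to 0.162). Slc38a9, the lysosomal protein through which arginine acts on mTORC1, was at 8.03 ± 0.955 in EV and 9.34 ± 0.712 CPM in KO (SD, n = 4 each), with a log2 fold change of 0.22 at an SE of 0.111 (adjusted p = 0.166 in edgeR). Slc36a4, another member of the Slc36 family, was at 46.2 ± 2.06 in EV and 43.5 ± 2.37 CPM in KO (SD, n = 4 each). Its log2 fold change was −0.086 at an SE of 0.0588 (adjusted p = 0.309 in edgeR). Slc36a3, Slc36a2 and Slc36a1 lie side by side on chromosome 11, and Slc36a2 and Slc36a3 had no count in any library.

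The 3 members that passed and carry the letters CACGTG next to their start sites are shown because this E-box core lies within the elements through which TFEB and related factors act on lysosomal genes, and because the 3 include both called lysosomal carriers. Promoters (250 bases before a start site and 50 from it on, 5′ to 3′) are from RefSeq on GRCm38.p6, the assembly of mm10, and CACGTG, which reads the same on both strands, is in capitals.
Slc36a1, chr11:55204090-55204389, plus strand: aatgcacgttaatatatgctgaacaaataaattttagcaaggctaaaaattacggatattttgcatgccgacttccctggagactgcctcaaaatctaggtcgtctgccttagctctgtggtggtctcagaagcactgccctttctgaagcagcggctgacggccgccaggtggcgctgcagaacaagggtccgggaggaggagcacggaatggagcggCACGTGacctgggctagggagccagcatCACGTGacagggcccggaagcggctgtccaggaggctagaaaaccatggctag
Slc38a7, chr8:95853442-95853741, minus strand: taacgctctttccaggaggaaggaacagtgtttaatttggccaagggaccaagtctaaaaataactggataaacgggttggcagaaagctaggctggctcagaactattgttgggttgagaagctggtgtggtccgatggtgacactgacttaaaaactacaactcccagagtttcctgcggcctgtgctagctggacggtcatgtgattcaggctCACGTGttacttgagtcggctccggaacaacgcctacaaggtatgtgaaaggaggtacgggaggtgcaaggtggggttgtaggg
Slc43a1, chr2:84840073-84840372, plus strand: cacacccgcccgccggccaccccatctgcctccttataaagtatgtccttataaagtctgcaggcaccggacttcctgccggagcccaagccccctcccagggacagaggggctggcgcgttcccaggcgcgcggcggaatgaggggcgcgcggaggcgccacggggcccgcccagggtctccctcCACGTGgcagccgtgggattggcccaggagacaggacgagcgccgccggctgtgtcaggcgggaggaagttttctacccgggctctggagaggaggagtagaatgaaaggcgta
Slc36a1 holds the letters at 31 and 3 bases before its start, Slc38a7 at 34 bases and Slc43a1 at 64 bases before. The first 2 genes rose and the third fell. Of 41 members matched to a promoter, 8 held CACGTG, beside 7.15% of all 32851 promoters in the table (a gene may have several; the 41 members had 62), and of the 8 called members that matched, 3 did. The other holders were Slc1a6, which did not pass, and Slc1a7, Slc38a5, Slc6a3 and Slc7a14, which were not tested. Levels of the factors were not examined here, and a match is a description of letters and not a binding site. Slc6a6, Slc6a8, Slc7a2 and Slc7a4 were not matched.

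The Slc43 family split. Slc43a1 (ENSMUSG00000027075, mm10 chromosome 2, 84838850 to 84863594), a carrier of leucine, phenylalanine and other large neutral amino acids that needs no sodium, stood at 16.3, 16.4, 13.5 and 14.8 CPM in the EV libraries and 11.7, 10.8, 11.6 and 11.6 CPM in the KO libraries. The groups did not overlap, and the KO values lay closer together than the EV values. It fell with a log2 fold change of −0.42 at an SE of 0.0903 (adjusted p = 0.00195 in edgeR) and passed under each of 20 alternatives, with log2 fold changes from −0.47 to −0.36. Slc43a2 (ENSMUSG00000038178, mm10 chromosome 11, 75531694 to 75577575), a carrier of the same kind, stood at 20.4, 24.1, 24.4 and 23.4 CPM in the EV libraries and 30.1, 28.9, 26.5 and 24.5 CPM in the KO libraries. KO replicate 4 lay barely above the highest EV library. It rose with a log2 fold change of 0.25 at an SE of 0.0791 (adjusted p = 0.0266 in edgeR), a call lost without EV replicate 1 (adjusted p = 0.0859), KO replicate 1 (adjusted p = 0.1003) or KO replicate 2 (adjusted p = 0.0707), without KO replicates 2 and 3 (adjusted p = 0.138), in the 3 fits on FPKM (adjusted p from 0.145 to 0.245) and with library totals alone (adjusted p = 0.0780). Slc43a3, which carries purine nucleobases, stood at 104, 109, 111 and 115 CPM in the EV libraries and 109.8, 106, 111 and 115 CPM in the KO libraries. The groups overlapped, with a log2 fold change of 0.016 at an SE of 0.0474 (adjusted p = 0.841 in edgeR). Slc43a1 and Slc43a3 lie on chromosome 2 with 72984 bases between them, and 1 of the pair passed.

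Transporter genes are also read out as targets of ATF4, the transcription factor made when amino acids are short, so genes of that response and of amino acid use were counted beside them. Values in parentheses after gene names are log2 fold changes of KO over EV with their SE. Over 8 lists without the members, 128 of 141 genes were tested, 19 rose and 11 fell, or 23.4% beside the 26.0% of all tested genes, and without KO replicates 2 and 3, 15 passed in all. Of 26 ATF4 and amino acid response genes, 5 rose and 2 fell (26.9%, median log2 fold change 0.037). Ddit3 (0.33, SE 0.0775, edgeR adjusted p = 0.00340), a transcription factor of the stress response, and Atf5 (0.28, SE 0.0753, edgeR adjusted p = 0.00907) rose, while the serine synthesis enzyme Psat1 (−0.22, SE 0.0532, edgeR adjusted p = 0.00502) and asparagine synthetase, Asns (−0.19, SE 0.0548, edgeR adjusted p = 0.0138), fell. Of 20 cytosolic aminoacyl-tRNA synthetases, which load tRNAs with amino acids, 4 rose and 0 fell (20%, median 0.079): Cars (0.24, SE 0.0598), Vars (0.18, SE 0.0465), Wars (0.18, SE 0.0615) and Aars (0.12, SE 0.0412). Of 30 genes of amino acid sensing by mTORC1, 4 rose and 2 fell (20%, median 0.044). Sesn1 (−0.44, SE 0.0533, edgeR adjusted p = 5.15e-06) and Sesn3 (−0.48, SE 0.0873, edgeR adjusted p = 0.000381), whose family restrains mTORC1 when leucine is low, fell, and the Rag GTPase Rragc (0.23, SE 0.0464) and the Ragulator subunit Lamtor4 (0.28, SE 0.0793) rose. With library totals alone the edgeR calls of Aars and Wars were lost (adjusted p = 0.211 and 0.128). With limma on log2(FPKM + 1) those of Aars, Wars, Vars, Atf5 and Lamtor4 were lost (adjusted p from 0.0517 to 0.194).

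Enzymes and other carriers of amino acids went both ways, and their shares of called genes are to be read beside the 26.0% of all tested genes. Of 12 genes of glutamine and glutamate enzymes, 3 rose and 2 fell (41.7%, median log2 fold change 0.061). Abat, which breaks down GABA, fell by 0.72 on the log2 scale (SE 0.0537, edgeR adjusted p = 7.95e-09), and glutamine synthetase, Glul (0.34, SE 0.0566), and Glud1 (0.15, SE 0.0431) rose. Of 12 genes of glutathione synthesis and use, 2 rose and 2 fell (33.3%, median 0.025). Gclm (−0.24, SE 0.0558), the modifier subunit of the first enzyme of glutathione synthesis, and Ggt5 (−0.47, SE 0.113) fell, and Oplah (0.50, SE 0.153) and Gpx1 (0.15, SE 0.0539) rose. Of 15 genes of branched-chain amino acid breakdown, 0 rose and 2 fell (13.3%, median −0.016), Ivd (−0.22, SE 0.0593) and Bckdk (−0.19, SE 0.0533). Of 9 mitochondrial amino acid carriers, 0 rose and 2 fell (22.2%, median −0.037), the aspartate-glutamate carriers Slc25a12 (−0.40, SE 0.0516) and Slc25a13 (−0.27, SE 0.0569). Of 8 carriers of other families, 1 rose and 0 fell (12.5%, median 0.13), the lysosomal cysteine carrier Mfsd12 (0.33, SE 0.102). Without KO replicates 2 and 3, the calls of Asns, Atf5, Psat1, Aars, Lamtor4, Glud1, Oplah, Gpx1, Bckdk and Mfsd12 were lost (adjusted p from 0.0575 to 0.224). With library totals alone the calls of Glud1 and Gpx1 were lost (adjusted p = 0.0977 and 0.175), and with limma on log2(FPKM + 1) those of Glud1, Gpx1, Oplah and Mfsd12 (adjusted p from 0.0656 to 0.219). Several calls did not hold with 1 library left out, where the tests have less power, while no sign turned. Without 1 library, the call was lost for Asns and Glud1 (adjusted p = 0.0597 for Asns when KO replicate 1 was left out, and 0.0561 for Glud1 when KO replicate 3 was). It was lost for Aars when EV replicate 2 or 3, or KO replicate 1, 2 or 4, was left out (adjusted p from 0.0607 to 0.113) and for Wars when EV replicate 2 or 4, or KO replicate 1 or 4, was left out (adjusted p from 0.0528 to 0.137). It was lost for Gpx1 when EV replicate 2 or 4, or KO replicate 1, 3 or 4, was left out (adjusted p from 0.0598 to 0.159), for Oplah without KO replicate 1 or 2 (adjusted p from 0.0546 to 0.0731) and for Mfsd12 without EV replicate 4 or KO replicate 3 (adjusted p from 0.0555 to 0.0982).

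**Figure D5:**
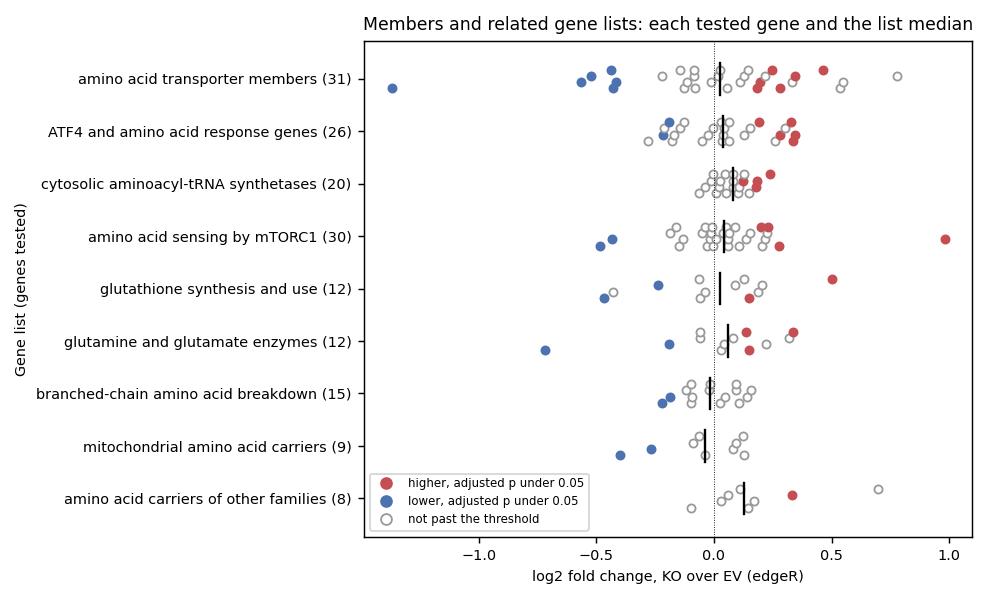
log2 fold change of KO over EV (x axis) of each tested gene in the transporter families and in 8 related lists (y axis, genes tested in parentheses). Filled red and blue points rose and fell at an adjusted p under 0.05, open grey points did not pass, and black bars are medians, which lie between −0.037 and 0.13.

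ATF4 acts through CARE elements, composite sites whose core is TTGCATCA or, read on the other strand, TGATGCAA. The 30-base windows around these letters in the members Slc7a11 and Slc1a4, known ATF4 targets, are shown so that the letters can be read beside the values of these genes. The sequences are from RefSeq on GRCm38.p6, 5′ to 3′ along the gene, with the core in capitals.
Slc7a11, chr3:50443661-50443690, minus strand: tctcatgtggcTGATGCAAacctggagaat
Slc7a11, chr3:50443642-50443671, minus strand: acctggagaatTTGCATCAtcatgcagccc
Slc1a4, chr11:20332699-20332728, minus strand: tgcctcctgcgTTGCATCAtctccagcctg
In Slc7a11 the letters occur 66 and 47 bases before the start site in opposite orientations, and in Slc1a4 they begin 4 bases before it. Both strands were searched in the same windows as for CACGTG. The letters were found in 3 of the 41 matched members, Slc7a7 being the other, and in 0.895% of all 32851 promoters. A member counted if any of its promoters matched, and the 41 had 62 promoters. Shares of members and of promoters are therefore unlike measures, here and for the next motif. None of the 3 genes passed: log2 fold changes were 0.33 (SE 0.221) for Slc7a11, 0.13 (SE 0.0923) for Slc1a4 and 0.54 (SE 0.337) for Slc7a7. The last motif searched, the antioxidant response element TGACNNNGC on both strands, occurred in 8 of 41 matched members and in 12.4% of all promoters. The holders were Slc36a1 and Slc43a1 among called members, Slc38a2, Slc6a9, Slc7a1 and Slc7a6, which did not pass, and Slc6a11 and Slc6a13, which were not tested. In Slc36a1 it begins 1 base past the start site and shares letters with the second CACGTG.

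The 28 members that were not tested held at most 8 counts in a library and 23 in all. Of these, 13 had no count in any library, and a count of 0 allows a level of up to 0.164 CPM in the shallowest library. Beside 8 Slc6 members they were Slc36a2, Slc36a3, Slc7a10, Slc7a12 and Slc7a13. The other 15 had between 1 and 23 counts in all. The epithelial glutamate carrier Slc1a1 had the most, with 3, 0, 8 and 0 counts in the EV libraries and 3, 5, 1 and 3 in the KO libraries, with overlapping groups. Slc1a7 had 3 and 2 counts in EV replicates 1 and 2 and 0 elsewhere, and Slc38a8 had 1, 0, 0 and 1 counts in EV and 0, 2, 4 and 3 in the KO libraries. Slc38a5 had 1, 2, 1 and 1 counts in EV and 0, 0, 0 and 1 in KO replicates 1 to 4, so the counts of the groups met at 1. For Slc7a8, given above, each KO library held fewer counts than each EV library, with at most 5 counts in any library. How often genes under the filter show this was not counted. None of the 15 was tested.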

How the data were processed

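Messenger RNA of 4 EV and 4 KO libraries was measured. The deposited gene counts were whole numbers for 35275 genes, and the authors' FPKM equalled count over length and column total in 100% of nonzero values within 1e-06. The build was mm10 and DESeq 1.6.3 was named, per the submitters' processing notes. The sources used here do not give the aligner, the counter or the use of strand. Genes passing filterByExpr (minimum count 10, total 15) were tested with edgeR 4.0.16 (TMM, quasi-likelihood F test, two-sided, in R 4.3.3), with p-values adjusted by Benjamini-Hochberg over 12801 genes and a threshold of 0.05. The fitting code was tested on simulated data. Alternatives were DESeq2 1.42.0, limma-voom and limma on log2 FPKM (limma 3.58.1, pseudocounts 1 and 0.1), other scalings and filters, a replicate block and each library left out. Leaving out KO replicates 2 and 3 together was chosen after seeing the data. Members and lists were chosen with earlier results of these data known. Every tested member could be named. Values in every library were due for members that passed and members with a mean of at least 10 FPKM, and up to 4 genes of each list with the smallest adjusted p were named. No pair of libraries within a group agreed within sampling noise (chi-square per degree of freedom 4.01 to 13.2).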

Additional observations from a re-analysis of the deposited data

Results flagged for a closer look

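In groups of 4 libraries, a highest or lowest value was singled out where its gap to the nearest other library took up most of the range of the group (Dixon's test at 95%). Of 62 groups of the 31 tested members, 5 held such a value, and chance alone marks about 1 in 20 groups. Slc38a3 was at 0.877 CPM in EV replicate 1, while the other EV libraries were between 0.131 and 0.185 CPM. Slc43a1 was at 10.8 CPM in KO replicate 2, while the other KO libraries were between 11.6 and 11.7 CPM. Slc6a17 was at 3.23 CPM in KO replicate 2, while the other KO libraries were between 1.95 and 2.07 CPM. Slc7a2 was at 56.0 CPM in KO replicate 2, while the other KO libraries were between 48.8 and 49.7 CPM. Slc7a6 was at 97.4 CPM in EV replicate 2, while the other EV libraries were between 93.7 and 94.0 CPM.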

How the results depend on the processing

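Of the 12 members that passed, Slc6a6, Slc6a8, Slc1a3, Slc38a7 and Slc43a1 passed in all 20 alternatives and Slc1a2 in the 18 that tested it. The number of members higher in KO, 6, was 3 on log2(FPKM + 1), 3 on log2(FPKM + 0.1) and 2 on log2(FPKM + 1) without a filter. Leaving out 1 library gave 3 to 6 higher and 4 to 7 lower members, with 3 higher without KO replicate 1. The number of list genes that passed, 30, was 18, 18 and 14 in the same FPKM fits and 15 without KO replicates 2 and 3, and 23 to 31 with 1 library left out. All genes that passed, 3324, numbered 1974 without KO replicates 2 and 3 and 2621 to 3359 with 1 library left out. With fewer libraries the tests have less power, and the cause of the other differences was not tested.

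Signs turned only in members that did not pass. The log2 fold change of Slc43a3 was −0.035 with library totals alone, −0.034, −0.035 and −0.034 in the FPKM fits, −0.015 without EV replicate 1 and −0.0035 without KO replicate 4, in a range up to 0.040 with 1 library left out. That of Slc7a6 was −0.025 with library totals alone and −0.024, −0.025 and −0.024 in the FPKM fits. With 1 library left out, Slc38a6 ranged from −0.055 (without EV replicate 3) to 0.19 and Slc38a2 from −0.032 to 0.0045 (without EV replicate 4). At the low level of Slc6a4 the value was −0.33 without KO replicates 2 and 3.

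Replicate numbers are shared between EV and KO, but the labels do not say that they pair the libraries. Same-numbered libraries correlated in their deviations from the group means at 0.124, −0.034, 0.063 and 0.091, and not every library correlated best with its own number (EV replicate 2 with KO replicate 3, 0.043). With the replicate number as a block, 6 members were higher and 6 lower, 37 list genes and 3737 genes in all passed.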
